A study of Mus musculus with 12 samples.

Results

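ERVK elements are mouse endogenous retroviruses of class II, a group that includes the IAP and ETn/MusD elements. The copies described here are the rows of the deposited repeat table whose family is LTR/ERVK, whose end minus start is below 5000 bp, and which overlap an interval of the deposited m6A table by at least 1 bp. They number 4082, which is 1.15% of the 353879 ERVK copies below 5000 bp and a small fraction of the 4929385 repeat loci in the table. The rule used the annotation and the position of the intervals, not the signal values. The intervals belong to the m6A data of the same study, so membership is not independent of signal. Of the members 21.7% had 0 reads in all 6 libraries, against 68.9% of ERVK copies below 5000 bp outside intervals. Which genotypes set the intervals was not known here. The table gives the family only, so IAP, ETn and other ERVK subfamilies were not told apart.

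The study profiled N6-methyladenosine (m6A) on chromatin-associated RNA of E14TG2a cells, a male mouse embryonic stem cell line grown with serum, LIF and the inhibitors PD0325901 and CHIR99021. It compared 3 genotypes, wild type (WT), Alkbh5 KO and Alkbh5 del-cIDR, each with 2 replicates of m6A immunoprecipitated RNA and 2 of input RNA, 12 samples in all. The 6 columns of each table were read as the immunoprecipitated samples, and the columns marked KI were read as del-cIDR because it is the remaining genotype. The labels do not spell out cIDR, do not say how many clones were used, and do not say whether replicates were separate cultures, so p-values measure the spread between these libraries, which may be technical. The tables hold no gene rows, so the loss of Alkbh5 itself could not be checked. No input columns were analysed, so a change in m6A and a change in the amount of a copy's RNA cannot be told apart in any value below.

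A complete ERVK provirus carries a long terminal repeat at each end, which holds promoter and polyadenylation signals, around an internal region with the retroviral genes. Most genomic copies are fragments or solitary long terminal repeats, and annotation often splits an insertion into several rows. m6A is written by the METTL3-METTL14 complex and removed by the demethylase ALKBH5, and in embryonic stem cells the METTL3 and YTHDC1 pathway is known for acting on retroviral RNA on chromatin.

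The copies had a median length of 372.5 bp (10 to 4926 bp), against 243 bp for all ERVK copies below 5000 bp. They lay under 3117 intervals, 4.20% of the 74299 in the table, and 1816 copies shared an interval with another copy, so copies are not independent. A whole interval lay inside 1094 copies. Over all members 887 (21.7%) had 0 reads in all 6 libraries. Those had a median length of 106 bp and held a median of 17.0% of their interval, whereas members with reads had a median length of 432 bp and held 72.4%. Just inside the length limit lay a copy of 4926 bp on chromosome X with a mean signal of 74.9, and just outside it a copy of 5003 bp on chromosome 14 with 58.5.

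Signal was concentrated in few copies. The 10 strongest members carried 11.1% of all member signal and the 100 strongest 40.9%. A mean signal of at least 20 over the 6 libraries, the minimum for testing, was reached by 1697 members (41.6%), which carried 97.9% of the member signal, and 2385 members were not tested. Signal is reads multiplied by a factor per library that sets the m6A-modified spike-in RNA equal in all libraries, and 1 read was worth 1.45 to 3.33 units. Libraries held 20922839 to 26267351 reads in repeat loci and 814 to 1870 reads of the modified spike-in.

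Reads in the members made up 0.786% and 0.796% of repeat reads in the WT libraries, 0.662% and 0.671% in Alkbh5 KO, against 0.877% and 0.859% in Alkbh5 del-cIDR. The 3 groups did not overlap, with del-cIDR highest and KO lowest, and this share does not depend on the spike-in. On the log2 scale KO lay −0.25 ± 0.01 (SE, n = 2 libraries per group) from WT, del-cIDR 0.13 ± 0.02 above WT and 0.38 ± 0.02 above KO. With 2 libraries against 2 the smallest p of an exact permutation test is 0.333, so that test could not reach 0.05 for this value.

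Across all 433487 tested repeat loci the median log2 change was −0.31 in KO against WT, 0.35 in del-cIDR against WT and 0.65 in del-cIDR against KO, all on the deposited scale. Relative to those medians, the median of the tested members was −0.23 ± 0.02 (SE, n = 2 libraries per group) in KO against WT, 0.04 ± 0.04 in del-cIDR against WT and 0.24 ± 0.04 in del-cIDR against KO. Per library, relative to the WT mean, the member median was −0.24 and −0.21 in KO and 0.08 and −0.003 in del-cIDR, with the WT libraries at −0.008 and 0.008. Both KO libraries therefore lay below both WT libraries, whereas the second del-cIDR library lay within the WT spread.

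**Figure D1:**
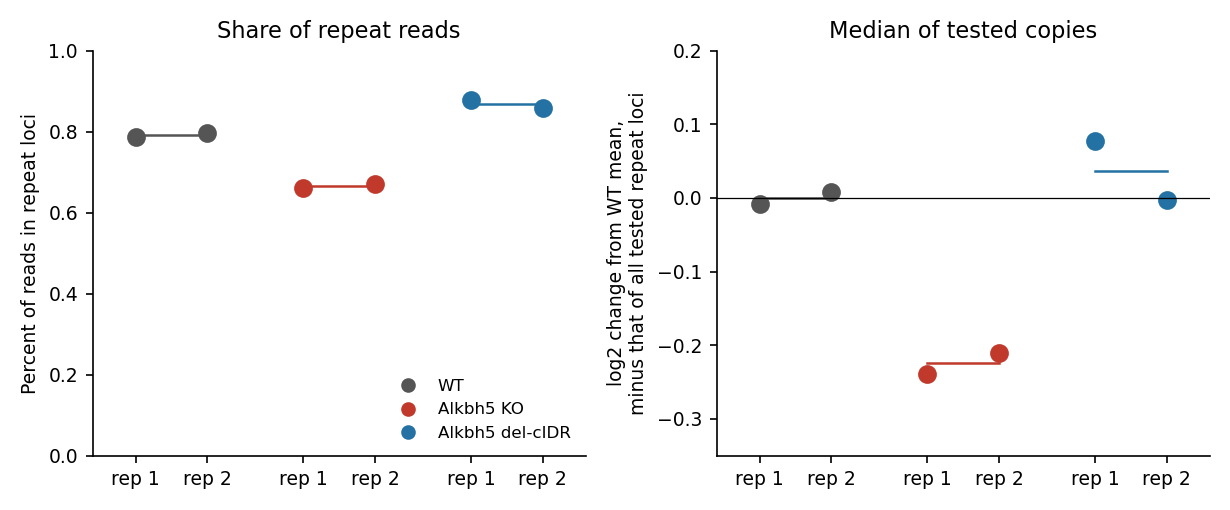
Left, percent of reads in repeat loci that fall in the short ERVK copies under intervals, 1 point per library with a line at the group mean. Right, median over the 1697 tested copies of the log2 change from the WT mean, minus the same over all tested loci; the KO libraries sit at −0.24 and −0.21 and the del-cIDR libraries at 0.08 and −0.003.

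In Alkbh5 KO against WT, 205 of the 1697 tested members fell and 7 rose (limma, Benjamini-Hochberg adjusted p of at most 0.05 over all tested loci). The background was 2.58% of all tested loci called, 2.41% lower and 0.165% higher, against 12.1% and 0.412% of the members. With each library centred on its median, 213 were lower and 33 higher, where 3.35% of all tested loci were called (2.09% lower and 1.26% higher). With ERCC spike-in reads as the scale 176 of 1678 tested members were lower and 44 higher. On that scale 1.61% of all tested loci were lower and 1.98% higher. Members had a higher signal than repeat loci at large, with a median of 92.6 against 52.5 among tested loci. Both KO libraries lay below both WT libraries in 846 tested members (49.9%), against 33.8% of all tested loci, and above them in 102 (6.01%), against 7.84%. After centring these counts were 696 (41.0%, against 24.7%) and 295 (17.4%, against 23.2%). Within equal ranges of signal members were still called lower more often, in 3.91% against 1.22% of loci from 20 to 50 units, in 13.0% against 2.88% from 50 to 100, in 15.7% against 3.52% from 100 to 300, and in 18.4% against 6.16% above 300. The count depended on single libraries. Leaving out each of the 6 libraries in turn moved the total calls among members and among all tested loci in the same direction. Without WT replicate 1 or 2 the median log2 change of all tested loci was −0.37 and −0.28. Without KO replicate 1 or 2 it was −0.60 and 0.01. Member medians lay −0.27, −0.21, −0.21 and −0.24 from these. Of the 205 lower members, 33 were called in all 6 of these fits.

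Other repeat copies did not share all of these values. ERVK copies of 5000 bp or more under intervals had 3 lower among 237 tested, with a median −0.02 from all tested loci on the log2 scale. Short ERVK copies outside intervals had 1120 lower (5.04%) and 83 higher among 22228 tested, with a relative median of −0.05. Short ERV1 copies under intervals, class I retroviruses, had 40 lower (13.7%) among 293 tested and a relative median of −0.16, a share of lower calls above that of the ERVK members. Short MaLR and L1 copies under intervals had 5.88% and 6.63% lower among 1395 and 3439 tested, above the 2.41% of all tested loci. Their relative medians were −0.08 and −0.04. Short ERVL copies under intervals had 18 lower (2.93%) and 6 higher among 614 tested, with a relative median of 0.52. The difference between these lists was not tested.

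The strongest members ranked by signal gave different responses. The highest was a 192 bp copy on chromosome 11 (97958616 to 97958808, coordinates of GRCm39 as the files give them), with 7417 and 6437 units in WT, 4763 and 3235 in KO, against 11066 and 13394 in del-cIDR. Its groups did not overlap, but the changes against WT did not pass (limma adjusted p = 0.13 for KO and 0.36 for del-cIDR). The third strongest, a 1911 bp copy on chromosome 3 (8085118 to 8087029), had 5155 and 3818 in WT, 1088 and 743.1 in KO, against 9832 and 12154 in del-cIDR. It fell 4.90-fold in KO (log2 change −2.30 ± 0.30 (SE), limma adjusted p = 1.5e-10) and rose 2.45-fold in del-cIDR (limma adjusted p = 0.035, called in 2 of the 6 fits that leave out a library). A 461 bp copy on chromosome 8 (26337427 to 26337888) had 3411 and 4584 in WT and 4060 and 2699 in KO, which overlapped (limma adjusted p = 0.76).

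Among the members that fell most, a 702 bp copy on chromosome 9 (13668611 to 13669313) had 2492 and 2226 units in WT, 139.7 and 135.0 in KO, against 9179 and 11396 in del-cIDR. It was 17.2-fold lower in KO (log2 change −4.08 ± 0.31 (SE), limma adjusted p = 5.2e-34) and 4.36-fold higher in del-cIDR (limma adjusted p = 4.6e-07, 0.080 without WT replicate 2 and 0.090 without del-cIDR replicate 2). Not every lower member was high in del-cIDR. A 727 bp copy on chromosome 1 (22552619 to 22553346) had 145.9 and 132.5 in WT, 31.5 and 2.90 in KO, against 140.0 and 86.3 in del-cIDR, so it fell in KO (limma adjusted p = 1.7e-09) while del-cIDR overlapped WT. A 627 bp copy elsewhere on chromosome 9 (38325474 to 38326101) had 152.8 and 154.6 in WT, 0 and 2.90 in KO, against 840.2 and 693.7 in del-cIDR (limma adjusted p = 4.0e-30 for KO against WT). Its KO libraries held 2 reads together, so no fold is given. A 463 bp copy on chromosome 10 (97579807 to 97580270) had 71.8 and 49.1 in WT, 0 in both KO libraries, and 250.1 and 159.8 in del-cIDR (limma adjusted p = 1.6e-11 for KO against WT). A 573 bp copy on chromosome 11 (8220587 to 8221160) had 94.9 and 95.7 in WT, 9.84 and 0 in KO, against 236.7 and 281.3 in del-cIDR. It fell 19.4-fold in KO (limma adjusted p = 6.3e-14), and its rise in del-cIDR did not pass (limma adjusted p = 0.34).

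**Figure D2:**
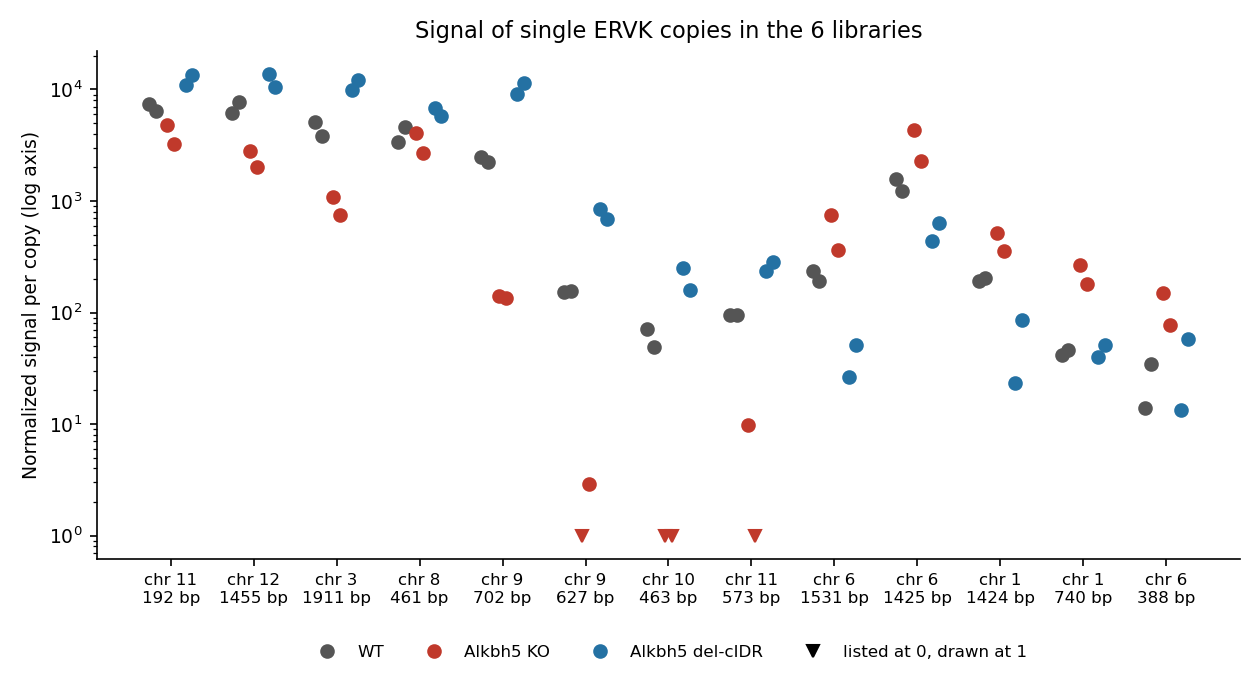
Normalized signal of 13 single copies (log axis), 1 point per library in grey for WT, red for KO and blue for del-cIDR, with triangles for values of 0. The first 8 copies, from the strongest and the most decreased, have KO at or below WT and del-cIDR above it, with chromosome 8 overlapping; the last 5 have both KO libraries above WT.

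The 7 members that rose in KO ran the other way in part. 4 of them lay on chromosome 6, which is 4.65% of the 86 tested members there. Of all tested loci on that chromosome 0.510% were called higher in KO. A 740 bp copy on chromosome 1 (118032745 to 118033485) had 41.7 and 46.6 units in WT, 265.7 and 180.0 in KO, against 40.0 and 51.1 in del-cIDR. It rose 5.05-fold in KO (log2 change 2.26 ± 0.45 (SE), limma adjusted p = 0.00017, and 0.061 without WT replicate 1), whereas del-cIDR overlapped WT. None of the 7 was called in all 6 fits that leave out a library.

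In Alkbh5 del-cIDR against WT, 26 tested members rose and 3 fell. The background was 0.0651% called, 0.0452% higher and 0.0198% lower, against 1.53% and 0.177% of the members. Short ERV1 copies under intervals had 15 higher (5.12%) and 0 lower among 293 tested, a share of higher calls above that of the members. Short ERVK copies outside intervals had 63 higher (0.283%) and 11 lower among 22228. Short ERVL, MaLR and L1 copies under intervals had 1, 0 and 1 higher among 614, 1395 and 3439. After centring each library the counts were 23 higher and 6 lower (background 0.0957%, 0.0411% higher and 0.0547% lower). On the ERCC scale they were 16 and 25 of 1678 (background 0.0177% higher and 0.408% lower), so the balance of directions depended on the scale. The counts also depended on single libraries. In each of the 6 fits without 1 library the total moved in the same direction as that over all tested loci. The balance of higher and lower calls did not always hold. Without del-cIDR replicate 2, lower calls outnumbered higher ones among members and among all tested loci. Without del-cIDR replicate 1 they did so among all tested loci only. Without WT replicate 1 or 2 the relative median of the members was 0.03 and 0.08. Without del-cIDR replicate 1 or 2 it was −0.003 and 0.08. None of the 26 and none of the 3 was called in all 6 of these fits. Both del-cIDR libraries lay above both WT libraries in 865 tested members (51.0%), against 42.1% of all tested loci, and below them in 86 (5.07%), against 6.2%. After centring these counts were 458 (27.0%, against 19.6%) and 292 (17.2%, against 17.7%).

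Most of the 26 higher members lay beside other ERVK fragments. 24 of them held a whole interval, as 747 of the 1697 tested members did, and 21 had another ERVK fragment within 50 bp on both sides, as 490 tested members did; 3 had a fragment on 1 side and 2 had none, as the 708 bp copy on chromosome Y from 1178815. This gap and the classes that follow were chosen after the values had been seen, so they are descriptions without a test. Of the 75 tested members of 660 to 719 bp, 11 were called higher in del-cIDR and 16 lower in KO, which is 14.7% and 21.3%, with medians of 0.51 and −0.64 on the log2 scale. Of the 729 tested ERVK copies of that length outside intervals 0.686% and 5.76% were called, and of all tested loci 0.0452% and 2.41%. The 80 tested members of 3200 to 3299 bp had 0 calls in either comparison with WT by limma (6 in each at an unadjusted p under 0.05, and 0 by edgeR). Their medians were 0.17 in del-cIDR and −0.25 in KO. Of all tested loci 0.0651% and 2.58% were called, so 80 copies are too few to set these counts apart from the background. Of the 201 tested ERVK copies of that length outside intervals, 2 were lower and 3 higher in KO, and 1 was higher in del-cIDR.

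**Figure D3:**
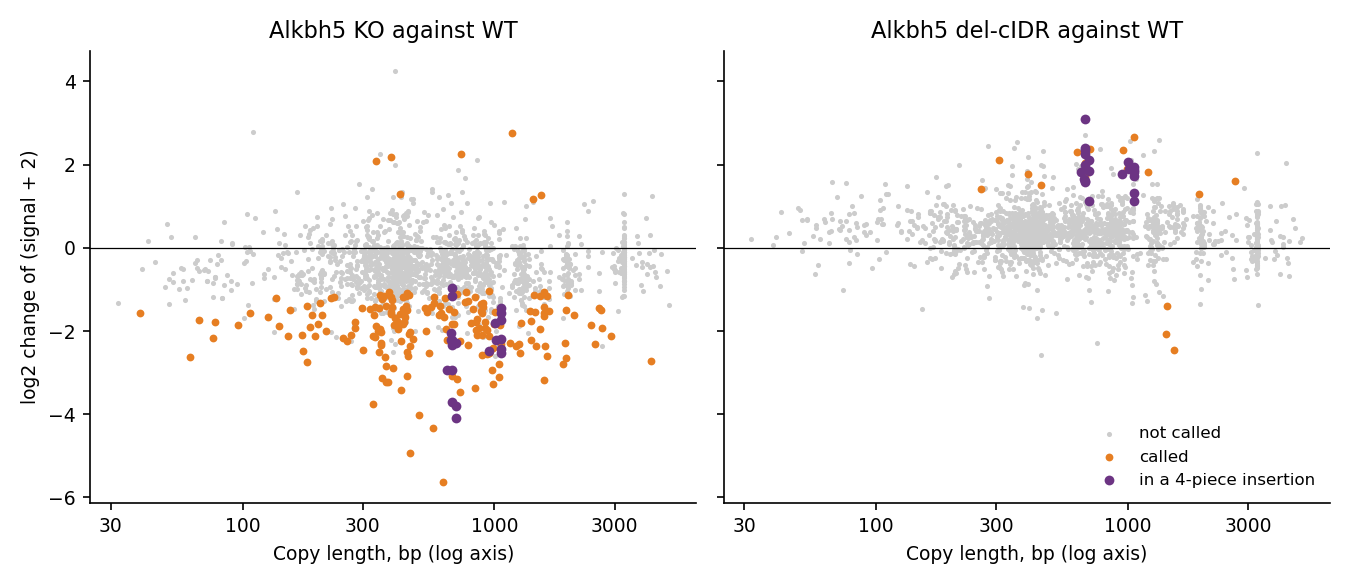
Change of each of the 1697 tested copies (log2 of signal + 2) against copy length in bp (log axis), for KO and for del-cIDR against WT. Grey points were not called, orange points were called, and purple points are the 21 tested members in 4-piece insertions, called or not; these lie below 0 in KO and above 0 in del-cIDR.

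A kind of insertion found repeatedly held 12 of the 26 members higher in del-cIDR and 18 of the 205 lower in KO. The repeat table held 43 runs of 4 ERVK pieces, no more than 50 bp apart, with end pieces of 360 to 400 bp around a long internal piece of 2600 to 2800 bp and a short internal piece of 600 to 1100 bp. They were spread over 19 chromosomes and spanned 4117 to 4556 bp, and in 38 the lengths of the end pieces were within 2 bp of each other; the files do not say which pieces are terminal repeats. The short internal piece lay under an interval in 24 insertions, which are members here. None of the long internal pieces or end pieces did. In all 24 the interval lay wholly inside the short piece, with its centre a median of 407 bp from the long internal piece (381.5 to 473.5 bp).

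All 21 tested members in these insertions were below WT in KO, 18 of them called, with log2 changes from −4.08 to −0.96 and a median of −2.23. All 21 were above WT in del-cIDR, 12 of them called, with log2 changes from 1.11 to 3.11 and a median of 1.84. In each of the 21, both KO libraries lay below both WT libraries and both del-cIDR libraries above them. Testing needed a mean of 20 over all 6 libraries, so a weak copy could pass through del-cIDR alone, which favours a rise there. The 676 bp copy on chromosome 15 from 88473679 did so. It had 4.63 and 19.6 units in WT, 3.94 and 4.35 in KO, against 106.7 and 95.9 in del-cIDR. The 24 members in these insertions, tested or not, held 1.75% and 1.36% of member reads in WT, 0.381% and 0.407% in KO, against 3.52% and 4.35% in del-cIDR. Summed over the 24, their signal was 6963 and 5796 in WT, 1305 and 924.5 in KO, against 21515 and 25893 in del-cIDR, which is 5.72-fold lower and 3.72-fold higher than WT. The 702 bp copy on chromosome 9 made up 35.8% and 38.4% of this sum in WT, and without it the remaining 23 were 4.11-fold lower in KO and 3.34-fold higher in del-cIDR.

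Pieces of the same insertions outside any interval changed as well. The 24 long internal pieces had summed signals of 5338 and 5050 in WT, 1710 and 1138 in KO, against 17664 and 19084 in del-cIDR, which is 3.65-fold lower and 3.54-fold higher than WT, with 15 called lower in KO and 12 higher in del-cIDR. Per kb of sequence the short piece had 356.5 and 296.8 units in WT, against 82.0 and 77.6 for the long internal piece and 34.3 to 43.7 for the end pieces. In the 21 insertions with both internal pieces tested, the log2 change in KO was lower in the short piece than in the long piece in 16, with a median difference of −0.46 over the 21 (−1.84 to 0.85). In del-cIDR it rose more in 12 and less in 9. In the insertion on chromosome 9 (13665532 to 13669697), the long internal piece had 2075 and 2074 units in WT and 501.9 and 381.7 in KO, a log2 change of −2.24 ± 0.31 (SE) against −4.08 ± 0.31 for its short piece.

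The 19 insertions without an interval changed in the same directions where their pieces were tested. Of their short internal pieces 11 were tested, all below WT in KO (6 called) and all above WT in del-cIDR (6 called), with medians of −2.03 and 1.83. Some of these too passed the minimum signal only through del-cIDR, which favours a rise there. On chromosome 6 the piece from 110314275 had 6.95 and 14.7 units in WT, 0 in both KO libraries, against 106.7 and 115.1 in del-cIDR. Without the members in 4-piece insertions, 14 members remained higher and 3 lower in del-cIDR, 187 lower and 7 higher in KO, and the share of repeat reads differed from WT by −0.23 in KO and 0.10 in del-cIDR on the log2 scale. These insertions resemble each other in length and layout, and how reads that fit several copies were counted is not given in the sources used here, so their values may not be independent of each other.

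**Figure D4:**
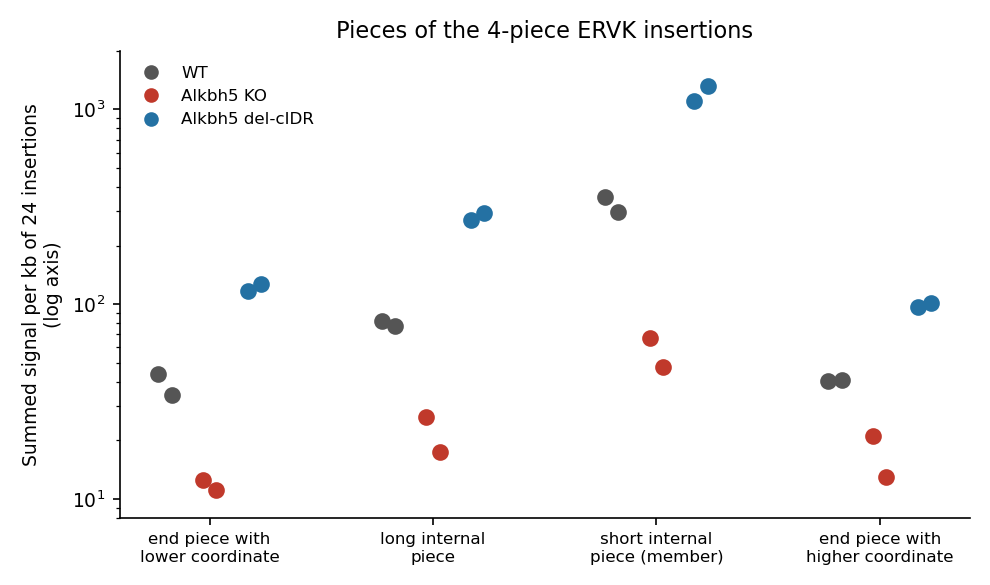
Summed signal per kb of each piece of the 24 insertions whose short internal piece lies under an interval (log axis), 1 point per library. In every piece both KO points lie below WT and both del-cIDR points above it; the short piece runs from 47.3 in KO to 1326 in del-cIDR.

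The 3 members that fell in del-cIDR were also alike in structure. They were 1424, 1425 and 1531 bp long and each lay next to an ERVK piece of 800 to 830 bp. The 1425 bp copy on chromosome 6 (64631195 to 64632620) had 1589 and 1217 units in WT, 4300 and 2287 in KO, against 436.8 and 639.3 in del-cIDR. It rose 2.35-fold in KO (limma adjusted p = 0.014) and fell 2.61-fold in del-cIDR (limma adjusted p = 0.021). Its order of genotypes is the reverse of that in the 4-piece insertions. The 1531 bp copy on chromosome 6 (19422823 to 19424354) had 236.2 and 191.4 in WT, 747.9 and 359.9 in KO, against 26.7 and 51.1 in del-cIDR (limma adjusted p = 0.045 for KO and 8.3e-06 for del-cIDR). The 1424 bp copy on chromosome 1 (7952434 to 7953858) had 189.9 and 203.7 in WT, 513.7 and 354.1 in KO, against 23.3 and 86.3 in del-cIDR, and was called in del-cIDR (limma adjusted p = 0.0010) but not in KO (limma adjusted p = 0.11). The table held 18 pieces of similar length (at least 1400 bp) next to a piece of 800 to 830 bp, a layout chosen after the values had been seen. Of these 6 were tested, and 3 of the 6 are the members above, whose fall in del-cIDR led to this layout. Those 3 were picked for that fall, so they add nothing to the counts that follow. In 5 of the 6 both del-cIDR libraries lay below both WT libraries, against 6.2% of all tested loci. In the same 5 the fall from KO to del-cIDR was called by limma, against 0.711% of all tested loci. The sixth, on chromosome X from 77558538, was not called. Next to the stronger chromosome 6 copy, a 4455 bp ERVK piece outside any interval had 9953 and 8755 in WT, 20549 and 13360 in KO, against 4674 and 5556 in del-cIDR, but its changes against WT did not pass (limma adjusted p = 0.12 for KO and 0.33 for del-cIDR).

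In Alkbh5 del-cIDR against KO, 638 tested members were higher and 23 lower. The background was 19.2% called, 18.4% higher and 0.711% lower, against 37.6% and 1.36% of the members. Among other short copies under intervals, higher calls made up 41.0% in ERV1, 31.1% in MaLR, 22.4% in L1 and 13.7% in ERVL. This comparison shares its KO libraries with that of KO against WT and its del-cIDR libraries with that of del-cIDR against WT. Centring each library gave 350 higher and 88 lower (background 10.4%, 5.85% higher and 4.59% lower). Scaling to ERCC reads gave 221 higher and 244 lower of 1678 tested members, where 2.53% of all tested loci were higher and 14.7% lower. The lower count was near that background share. The balance of directions thus depended on the scale here too. Both del-cIDR libraries lay above both KO libraries in 1168 members (68.8%), against 53.4% of all tested loci, and below them in 74 (4.36%), against 5.05%. After centring these counts were 732 (43.1%, against 27.9%) and 342 (20.2%, against 25.9%). Leaving out each of the 6 libraries in turn changed the total calls, in the same direction among members and among all tested loci. The relative median of the members was 0.22 and 0.26 without KO replicate 1 or 2. Without del-cIDR replicate 1 or 2 it was 0.21 and 0.29. Of the 638 higher members 201 were called in all 6 fits, and of the 23 lower members 6. The 702 bp copy on chromosome 9 was 74.9-fold higher in del-cIDR than in KO, and the 1531 bp copy on chromosome 6 was 14.2-fold lower.

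Repeats of other families near the members lower in KO had a lower median than all tested loci. Of the 205 members lower in KO, 119 had a tested repeat of another family within 2000 bp. Their median log2 change was −1.78, and the median of those neighbours was −1.38, against −0.31 for all tested loci. Of the 320 neighbouring loci 103 were called lower by limma and the others were not. Near members not called in KO, 60 of 2745 such loci were called lower, and of all tested loci 2.41%. Around the 928 uncalled members with such a neighbour the medians were −0.42 for the members and −0.29 for the neighbours, the latter close to that of all loci. A 993 bp copy on chromosome 17 (34764238 to 34765231) is an example, with 3876 and 3718 units in WT, 1281 and 873.7 in KO, against 8849 and 8682 in del-cIDR. A SINE B2 locus beside it (34765728 to 34765802) had 460.8 and 446.6 in WT, 82.7 and 97.2 in KO, against 966.9 and 1033 in del-cIDR. Of the 21 tested members in 4-piece insertions, 1 had a tested neighbour of another family within that distance, so the surroundings of these insertions could not be compared.

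Members were unevenly spread along the genome. On chromosome 12, 43 of 129 tested members fell in KO, with a median log2 change of −0.92 against −0.41 for all tested loci there, of which 4.63% were called lower. In its first part, 18 of 35 tested members were lower from 15 to 20 Mb (median −1.41; all loci −0.84, 19.96% called lower) and 18 of 55 from 20 to 25 Mb (median −1.05; all loci −0.62, 10.7% called lower). Between 20 and 25 Mb 9.75% of short ERVK copies lay under an interval, against 1.15% in the genome. On chromosome 6, where 4 of the 7 rises in KO lay, the median of all tested loci was 0.03, and on chromosome 8 it was −0.003. On the other chromosomes with at least 20 tested members it ran from −0.41 to −0.22. Their part in the member calls was not tested. On each of the 20 chromosomes with at least 20 tested members, the member median in KO lay below that of all loci.

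**Figure D5:**
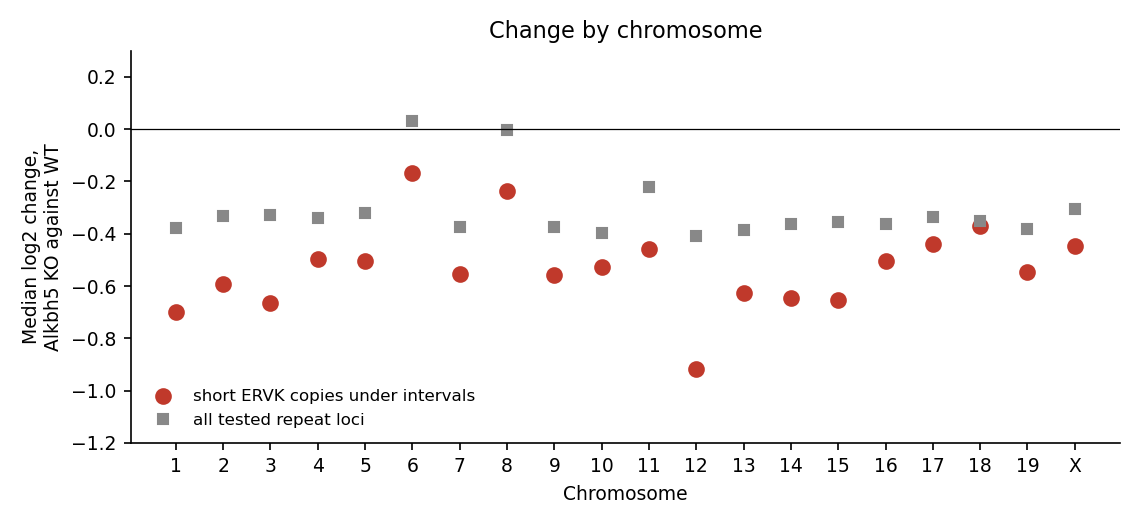
Median log2 change in KO against WT by chromosome, for the short ERVK copies under intervals (red circles) and for all tested repeat loci (grey squares), on the 20 chromosomes with at least 20 tested copies. Chromosome 12 has the lowest copy median, at −0.92, and chromosomes 6 and 8 have all-loci medians near 0.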

How the data were processed

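The authors deposited 2 tables of normalized signal, one for intervals and one for repeat loci; the tools given in the submitters' processing notes are bedtools, featureCounts, MACS2, Picard, SAMtools, HISAT2 and fastp, with GRCm39 as build and no versions or roles. Per the labels the values are normalized matrices. All deposited signal values are whole multiples of 1 step per library (100% of values, tolerance 1e-06), and the modified spike-in row is equal in all columns. Reads recovered this way were used for depth, shares and edgeR.

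Overlap took interval starts as 0-based and half-open. The main test was limma 3.58.1 (R 4.3.3, eBayes with trend) on log2(signal + 2) over 433487 repeat loci with a mean signal of at least 20, with 1 mean per group, all 6 libraries and Benjamini-Hochberg adjustment. Fold changes of means are on the signal scale, log2 changes on the log2(signal + 2) scale, which understates changes of weak copies. The test was also run on simulated counts of 60000 loci for KO against WT. These had the same dispersion at every locus, no overall shift between groups, and rises in KO only. There it recovered 0% of 1.5-fold, 6% of 2-fold, 60% of 4-fold and 100% of 8-fold changes, with 0 false calls. The deposited data had a median log2 change of −0.31 and mostly lower calls, so these rates need not hold for them. edgeR 4.0.16 (quasi-likelihood) was an alternative.

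Named copies are the 10 members with the highest signal and up to 10 per comparison and direction with the largest change among called copies without overlap between groups; the text gives a selection. Members, lists and tests were chosen with earlier results of these data known. Reference sequence and gene annotation of GRCm39 were not used here, so no sequences are printed.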

Additional observations from a re-analysis of the deposited data

How the results depend on the processing

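The number of members called, 212, 29 and 661 in KO against WT, del-cIDR against WT and del-cIDR against KO, was most affected by the spike-in and the filter. With the unmodified spike-in, which had 1729 and 4580 reads in the WT libraries, limma called 7, 0 and 26 of 1718 tested members. Over all tested loci it called 0.0166%, 0.00222% and 0.190%. With no filter on low values limma called 3, 0 and 142 of 3195 members, and 0.000574%, 5.74e-05% and 0.236% of all loci. At an unadjusted p under 0.05 the counts of 0 were 88 and 330, and edgeR on the deposited scale called 36. Counting only members covered to at least 50% left 84, 4 and 275 calls among 677 tested. That is 12.4%, 0.591% and 40.6%, against 12.5%, 1.71% and 39.0% of all tested members. The cause of the drops with the spike-in and the filter, and of the lower share in del-cIDR against WT, was not tested. Centring gave 438 calls and reads outside the intervals as scale 422 in del-cIDR against KO, edgeR with TMM factors 52 in del-cIDR against WT, and leaving out the 4-piece insertions, chosen after seeing the data, 17. edgeR on the deposited scale called 200, 36 and 638.

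Leaving out 1 library gave 51 to 503, 2 to 135 and 256 to 923 calls. With the replicate number as a block, 160, 15 and 566 were called; same-numbered libraries did not deviate together (correlations of deviations 0.03, −0.10 and −0.03), so the numbers do not pair them. The relative median in KO against WT ranged from −0.27 to −0.21 without 1 library, and was −0.33 with no filter and −0.29 at 50% cover. In del-cIDR against WT it ranged from −0.0033 to 0.077 and was 0.21 with no filter, and in del-cIDR against KO from 0.21 to 0.29 and was 0.44 with no filter. The log2 share of reads in KO against WT was −0.26 at 50% cover and −0.23 without the 4-piece insertions, in del-cIDR against WT 0.10 without them, and in del-cIDR against KO 0.33 without them and 0.40 per read outside the intervals. No direction of these medians and shares reversed in the alternatives run, apart from −0.0033 without del-cIDR replicate 1, where the value is near 0. The balance of higher and lower member calls in del-cIDR against WT did reverse on the ERCC scale and without del-cIDR replicate 2. Depth limits the weakest copies: 1233 members had 3 reads or fewer in all libraries together.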
